A study of Mus musculus with 9 samples.

Results

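The Myc and Max network is a family of transcription factor genes, and 10 of its members were followed here: Myc, Mycn, Max, Mxd1, Mxd3, Mxd4, Mxi1, Mnt, Mga and Mlx. They were listed by name, and each was read from the probe set of highest mean log2 intensity over 9 Affymetrix mouse arrays among the probe sets annotated with that gene alone. All 10 were on the arrays, out of 18194 genes with a probe set of their own, and all 10 were among the 12826 genes tested after a filter on dim genes. The members had 26 such probe sets between them. Only Myc and Max had 1, so for the other members the probe sets could be compared with one another.

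The RNA came from myeloid progenitors of C57/BL6 mice aged 2 to 4 months, sorted for c-Kit and for low or positive Mac1, without lineage markers or Sca-1 (the FrII fraction). There were 3 arrays from wild type mice, 3 from leukaemic mice with overexpressed Sox4, a transcription factor, and 3 from leukaemic K/L mice, which carry mutations on both alleles of Cebpa, the gene of the granulocyte regulator C/EBPα. The leukaemic cells were also gated as CD45.1-negative and CD45.2-positive in their sample descriptions, a gate that the sort protocol gives for every group. The source tissue is given as blood. How Sox4 was overexpressed, what the K and L alleles are, and whether the mice of a group shared a leukaemia or litter is not stated in the labels, so p-values measure only the spread between these arrays.

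Proteins of this network share a basic helix-loop-helix zipper and bind DNA as pairs. Myc and its relative N-Myc, the product of Mycn, pair with Max at E-box sequences and raise transcription of genes for ribosome building, metabolism and division. The Mxd proteins (Mxd1, Mxd3, Mxd4 and Mxi1) and Mnt also pair with Max but recruit the Sin3 corepressor with its histone deacetylases, so they act against Myc at shared sites. Mxd genes are best known for rising as cells stop dividing and differentiate, Mxd3 being an exception that is expressed in dividing cells. Mga pairs with Max within a Polycomb complex, and Mlx is a Max-like partner of the glucose-responsive Mondo proteins and of some Mxd proteins. In myeloid cells Myc falls as granulocytes mature, and C/EBPα is known to repress it.

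The E-box CACGTG is the sequence that Myc and Max pairs are known to bind. It was present in 4 of the 11 promoter windows that the table held for 9 members (36.4 percent, Mxi1 having 3 windows), beside 7.15 percent of all 32851 windows searched. The windows ran from 250 bases before to 50 bases after an annotated start site in RefSeq on GRCm38.p6. CACGTG reads the same on both strands, so both were searched. The 4 sites are shown with 12 bases on each side, 5′ to 3′ on the gene's strand and with the E-box in capitals, because they are the members' own copies of the network's binding sequence. Of the genes that carry them, Max and Mnt moved with Myc over the 9 arrays (Pearson r = 0.92 and 0.95), and Mxd4 and Mlx did so less closely (r = 0.39 and 0.26). For members without this E-box in a window, r with Myc was 0.70 (Mxd1), 0.47 (Mycn), -0.09 (Mxd3), -0.45 (Mxi1) and -0.46 (Mga). Mxd1 thus followed Myc more closely than Mxd4 and Mlx did. The Mycn value holds for its probe set 1425922_a_at alone. Another, 1425923_at, was bright in wild type cells only (means 11.21, 3.97 and 4.50 for wild type, Sox4 and K/L), so Mycn is not ranked.
Max (chr12:76962234-76962263, minus strand): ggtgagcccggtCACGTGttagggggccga
Mnt (chr11:74830789-74830818, plus strand): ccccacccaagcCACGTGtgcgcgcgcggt
Mxd4 (chr5:34187912-34187941, minus strand): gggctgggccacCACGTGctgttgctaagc
Mlx (chr11:101087238-101087267, plus strand): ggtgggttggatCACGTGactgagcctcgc
The E-box began 3 bases before the start site used for Max, 123 before that for Mnt, 219 before that for Mxd4 and 40 before that for Mlx. The stretch shown for Mxd4 lies outside the annotated gene, and those for the other 3 overlap the span of the gene, which includes transcripts with other start sites. The letters AACAAAG, a sequence that Sox factors are known to bind, were searched on both strands in the same way and were found in 0 of the same 11 windows, against 5.85 percent of all windows. No binding was measured here, so these matches describe the sequence alone.

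Before the members, the arrays themselves need a word. Median log2 intensity lay between 5.43 and 5.55, 4.86 to 5.57 percent of probe sets sat at the floor of the deposited values (a log2 value of 3), and with 3 arrays a group their number limits precision. Wild type array 3 stood apart, with a Pearson r of 0.977 and 0.979 with the other wild type arrays against at least 0.991 in every other pair of replicates. Sox4 measured 3.81 to 3.97 in wild type, 9.61 to 9.87 in Sox4 and 10.52 to 10.87 in K/L arrays, so it was high in both leukaemias. Cebpa had means of 9.59, 10.58 and 10.56, a level that says nothing of the mutations. Of the sort markers, Kit was near 9.2 in all groups (means 9.17, 9.18 and 9.22 for wild type, Sox4 and K/L), and the progenitor marker Mpo was 13.81 to 13.90. Itgam, which encodes Mac1, was too dim to be tested, with means of 4.91, 4.20 and 3.83. It lay below the 40th percentile of every leukaemic array and of wild type array 2 (4.76 against 4.95). Ptprc, which encodes CD45, had means of 11.33, 10.83 and 10.89 and was called lower in both leukaemias than in wild type cells. Other cell types' markers moved between groups. The summed linear intensity of 10 late neutrophil markers was 15271 to 20774 in wild type, 4186 to 4464 in Sox4 and 288 to 437 in K/L arrays, with 6 of the 10 lower and 0 higher in K/L than in wild type, and 3 lower and 6 higher in Sox4 than in wild type cells. That of 5 mast cell and basophil markers was 1164 to 1762, 2080 to 2760 and 5839 to 6437. Of the 4 of these tested, 3 were higher and 1 (Ms4a2) was lower in K/L than in wild type cells. In Sox4 cells 2 were higher and 0 lower. For 8 monocyte and macrophage markers the sum was 2548 to 2626, 8707 to 9153 and 3704 to 4645, and for 6 megakaryocyte markers 279 to 335, 1327 to 2121 and 219 to 226. Of the 8 monocyte and macrophage markers, 7 were higher and 1 (Adgre1) was lower in Sox4 than in wild type cells. In K/L cells 4 were higher and 1, again Adgre1, was lower. Sums of 7 erythroid markers (193 to 230, 1134 to 1243 and 212 to 249) and of 5 dendritic cell markers (395 to 514, 962 to 1166 and 324 to 430) were highest in Sox4 cells. Of 4 erythroid markers tested, 3 (Car1, Car2 and Klf1) were higher and 0 lower in Sox4 than in wild type cells. The brightest there were Car1 and Car2 (Sox4 means 8.01 and 9.42). Hba-a1 was not called (means 5.25 in wild type and 5.38 in Sox4), and Epor, Alas2 and Slc4a1 were too dim to be tested. Of 4 dendritic cell markers tested, 1 (Itgax) was higher and 1 (Tcf4) lower in K/L than in wild type cells. Sums of 6 B cell markers were 362 to 451, 539 to 682 and 701 to 746, and those of 6 T and NK cell markers 2009 to 2313, 2031 to 2409 and 1884 to 1989. Nkg7 was by far the brightest of these T and NK cell markers (means 10.94, 11.02 and 10.80). The means of Cd3e, Cd4 and Cd8a lay between 4.95 and 5.82, and Cd3g and Ncr1 were too dim to be tested. The 3' to 5' signal ratio of a control gene tracks RNA integrity. For Gapdh it ran from 2.68 to 2.91 on wild type, 2.22 to 2.44 on Sox4 and 1.93 to 2.00 on K/L arrays. For actin it did not separate the groups, with 0.88 to 0.98, 0.88 to 0.91 and 0.87 to 0.91 in that order. The part of the marker and Gapdh ratio differences in the results below was not tested, and in sorted bulk RNA fewer cells of a type and less RNA per cell cannot be told apart.

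Levels below are log2 intensities, with mean ± SD over 3 arrays (n = 3), and a change is one log2 mean minus another ± its standard error in a limma fit over all 12826 genes. Adjusted p-values are from that fit, by the Benjamini-Hochberg method over all genes tested, with calls at 0.05. Intensities of different probe sets are not set against one another.

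Myc, its partner Max and the Max-binding repressor gene Mnt were called higher in both leukaemias than in wild type cells. Of all genes tested, 29.0 percent were called higher in K/L and 26.7 percent in Sox4 cells. Both comparisons use the same wild type arrays, and the share of all genes called higher in both is not given here. Myc (1424942_a_at, on chromosome 15) measured 11.21, 11.29 and 10.85 on the wild type arrays, 12.01, 12.06 and 12.02 on the Sox4 arrays and 12.12, 12.28 and 12.14 on the K/L arrays. Every leukaemic array lay above every wild type array, and wild type array 3 was the lowest of all. The rise was 1.06 ± 0.12 in K/L cells (adjusted p = 6.72e-05) and 0.91 ± 0.12 in Sox4 cells (adjusted p = 0.000187), or 2.09-fold and 1.89-fold. The K/L arrays all lay just above the Sox4 arrays, but that difference of 0.15 (95% interval -0.12 to 0.42) did not pass the test (adjusted p = 0.418). The arrays spread more in wild type (SD 0.23) than in Sox4 (0.03) or K/L cells (0.08).

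Max (1423501_at, on chromosome 12) is a partner shared by Myc and the Mxd repressors. It measured 9.45, 9.05 and 8.81 in wild type, 9.65, 9.75 and 9.66 in Sox4 and 9.57, 9.94 and 9.81 in K/L arrays. The groups did not overlap with wild type, although wild type array 1 came close to the lowest K/L array. Max was higher by 0.67 ± 0.16 in K/L cells (adjusted p = 0.00612) and by 0.59 ± 0.16 in Sox4 cells (adjusted p = 0.0127). Between the leukaemias the difference was 0.09, with an interval of -0.27 to 0.44 (adjusted p = 0.749).

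Mnt (1418192_at, on chromosome 11), the broadly expressed Max partner that competes with Myc, showed the largest rises of the 10 by fitted value. It measured 8.24, 8.45 and 7.45 in wild type, 9.04, 9.07 and 9.02 in Sox4 and 9.41, 9.11 and 9.41 in K/L arrays. Wild type array 3 lay well below the other wild type arrays, and every leukaemic array lay above all 3. The rise was 1.26 ± 0.22 in K/L cells (adjusted p = 0.00101) and 0.99 ± 0.22 in Sox4 cells (adjusted p = 0.00432). Without wild type array 3 these values were 0.96 and 0.69 (adjusted p = 0.000181 and 0.00123), and with the mean of all Mnt probe sets 0.51 and 0.41 (adjusted p = 0.0142 and 0.0385). A second and dimmer Mnt probe set, 1418193_at, did not rise: its group means were 5.36 (wild type), 5.20 (Sox4) and 5.13 (K/L) (adjusted p = 0.291 and 0.13 against wild type in a limma fit over all probe sets).

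**Figure D1:**
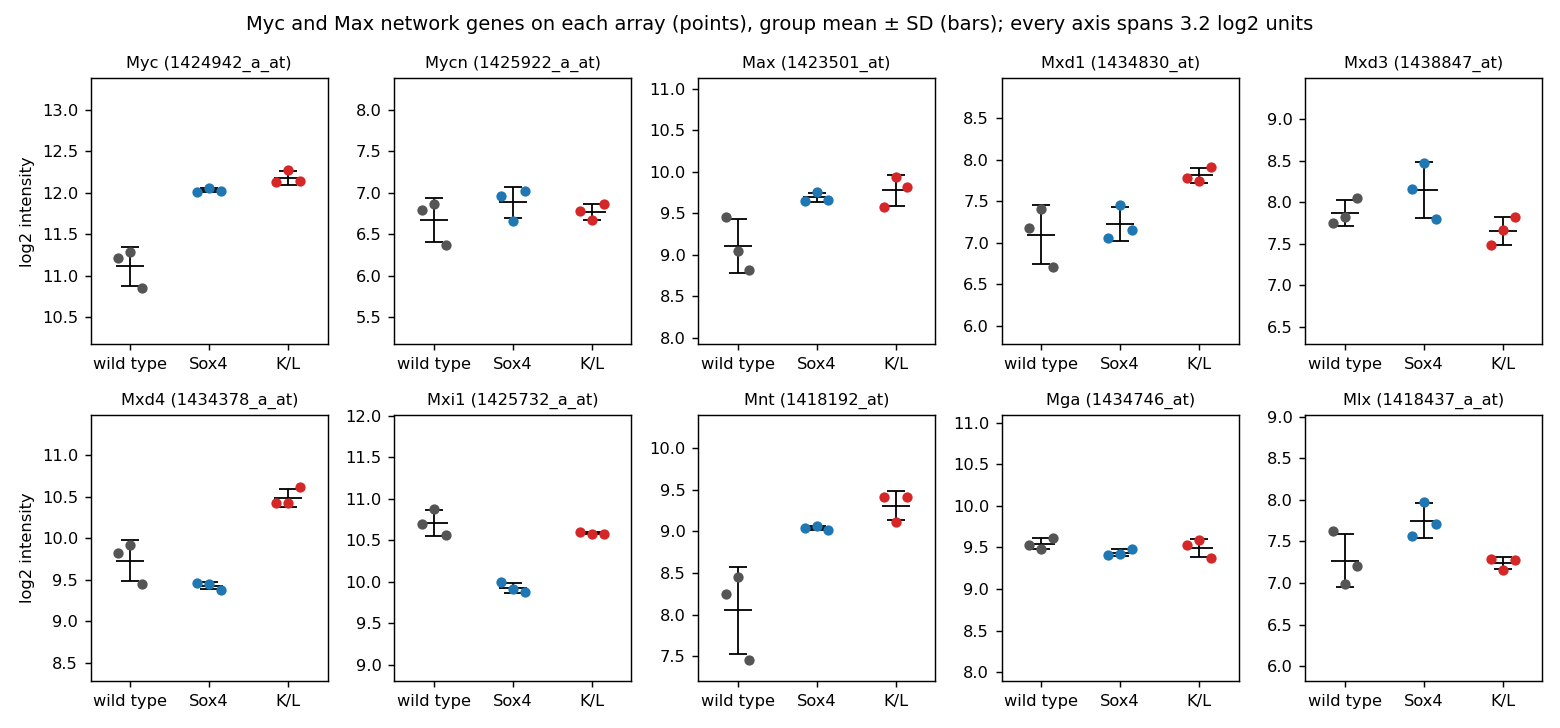
Log2 intensity (y axis, each panel spanning the same 3.2 units) of the 10 members on each of the 9 arrays, by group (x axis); points are arrays, bars are group mean ± SD (n = 3). Myc, Max and Mnt sit higher in both leukaemias, Mxi1 lower in Sox4 cells (mean 9.93 against 10.71 in wild type) and Mxd4 higher in K/L cells (10.49 against 9.73).

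The Mxd genes encode the dedicated Myc antagonists. Mxd1 and Mxd4 were higher in K/L cells than in either of the other groups, Mxi1 was lower in Sox4 cells than in either of the others, and Mxd3 passed no test. In the K/L against Sox4 comparison Mxd1, Mxd4 and Mxi1 were called higher in K/L cells, a call that 14.9 percent of all genes had.

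Mxd4 (1434378_a_at, on chromosome 5) measured 9.82, 9.92 and 9.45 in wild type, 9.45, 9.45 and 9.38 in Sox4 and 10.42, 10.42 and 10.61 in K/L arrays. All K/L arrays lay above all others, and wild type array 3 lay level with the Sox4 arrays. K/L cells were higher than wild type by 0.76 ± 0.13 (adjusted p = 0.000829) and higher than Sox4 cells by 1.06 ± 0.13 (adjusted p = 0.000189), which is 2.09-fold. The difference between Sox4 and wild type cells, -0.30 ± 0.13, did not pass (adjusted p = 0.0794), but did without wild type array 3 (-0.44, adjusted p = 0.00417) and with an intensity trend and robust prior (adjusted p = 0.045), over a range of 0.00417 to 0.901 in all alternatives tried. Of the other Mxd4 probe sets, 1422574_at and 1434379_at were also higher in K/L than in wild type cells, by 1.14 and 1.33 (adjusted p = 0.000252 and 0.000243 in the probe set fit), and 1422575_at, the dimmest, was not called (0.27, adjusted p = 0.194).

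Mxd1 (1434830_at, on chromosome 6), the family member best known from maturing granulocytes, measured 7.18, 7.40 and 6.71 in wild type, 7.05, 7.45 and 7.16 in Sox4 and 7.79, 7.74 and 7.92 in K/L arrays. The wild type and Sox4 arrays overlapped fully, and the K/L arrays lay above both. The rise in K/L cells was 0.72 ± 0.17 over wild type (adjusted p = 0.0066). Against Sox4 cells it was 0.59 ± 0.17 (adjusted p = 0.0287), a call lost with no filter on dim genes, without Sox4 array 1 or 3 and without any single K/L array (adjusted p up to 0.102). Both other Mxd1 probe sets were called higher in K/L than in wild type cells (0.44 and 0.71, adjusted p = 0.0306 and 0.0125), and neither was called against Sox4 cells. The rise of Mxd1 in K/L cells stood beside the lowest late neutrophil marker sum and the highest mast cell and basophil marker sum of the 3 groups, whose part in it was not tested. Of the mast cell and basophil markers, Ms4a2 went the other way, with means of 6.22 (wild type), 8.56 (Sox4) and 4.96 (K/L).

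Mxi1 (1425732_a_at, on chromosome 19) measured 10.69, 10.87 and 10.56 in wild type, 9.999, 9.91 and 9.88 in Sox4 and 10.60, 10.58 and 10.57 in K/L arrays. The Sox4 arrays lay below all others, while the K/L arrays fell within the wild type range. Mxi1 changed by -0.78 ± 0.10 in Sox4 cells against wild type (adjusted p = 0.000154), and K/L cells exceeded Sox4 cells by 0.65 ± 0.10 (adjusted p = 0.000884). The K/L change from wild type was -0.13 (interval -0.35 to 0.10, adjusted p = 0.333) with this probe set. With 1450376_at, the only other Mxi1 probe set, the Sox4 change was -1.07 (adjusted p = 3.9e-05) and the K/L change was -0.44 and passed the test (adjusted p = 0.00857).

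Mxd3 (1438847_at, on chromosome 13), the member tied to dividing cells, measured 7.75, 7.82 and 8.05 in wild type, 8.16, 8.47 and 7.80 in Sox4 and 7.48, 7.67 and 7.82 in K/L arrays. All groups overlapped. The K/L minus Sox4 difference of -0.49 ± 0.17 missed the threshold (adjusted p = 0.0568) and passed it without Sox4 array 3 (-0.66, adjusted p = 0.0158) and in 4 of the other 17 alternatives, over a range of 0.0158 to 0.187.

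**Figure D2:**
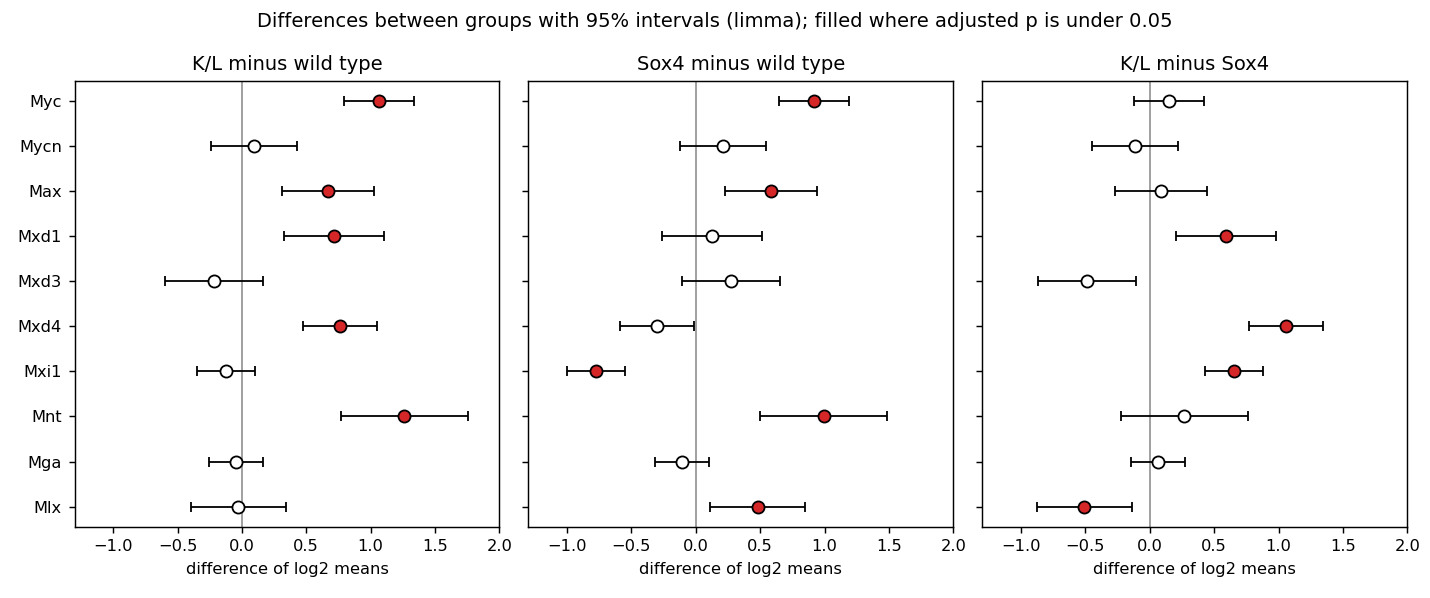
Differences of log2 means (x axis) for the 10 members (y axis) in the 3 comparisons, with 95% intervals from limma; filled points have an adjusted p under 0.05. Myc, Max and Mnt are filled on the right in both comparisons with wild type, and Mxd1, Mxd4 and Mxi1 are filled on the right in K/L minus Sox4, where Mlx is filled on the left (-0.51).

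Counted over the family, 5 of 10 members were called in K/L against wild type cells, 5 higher (Myc, Max, Mxd1, Mxd4 and Mnt) and 0 lower, where 50.6 percent of all genes tested were called. The absence of falls depends on the probe sets read: with the mean of all probe sets 5 were higher and 2 lower (Mycn and Mxi1), and with the probe set of highest linear mean 5 higher and 1 lower (Mycn). In Sox4 against wild type cells 5 of 10 were called, 4 higher (Myc, Max, Mnt and Mlx) and 1 lower (Mxi1), against 47.8 percent of all genes, and both of those rules gave 4 higher and 2 lower. Both shares are close to the background, so the number of calls says nothing particular about the family. Groups did not overlap for 5 members in the first comparison and 4 in the second, against 58.1 and 56.2 percent of all genes. Median changes of the members were 0.38 and 0.24, beside 0.06 and 0.03 over all genes tested. Both comparisons use the same wild type arrays. Of K/L against Sox4, 4 of 10 members were called, 3 higher and 1 lower in K/L cells, against 28.9 percent of all genes, and 6 did not overlap, against 51.1 percent. Over all genes that comparison had 1905 higher and 1797 lower calls, and 2546 and 1456 with each array centred on its median. With no filter on dim genes, and without any 1 of the 3 K/L arrays, 2 of the 4 members (Mxd4 and Mxi1) were called.

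Mycn gave a different answer with each of its 3 probe sets. The probe set of highest mean, 1425922_a_at, measured 6.78, 6.87 and 6.37 in wild type, 6.96, 6.66 and 7.02 in Sox4 and 6.78, 6.67 and 6.86 in K/L arrays, with overlap throughout. Its changes from wild type were 0.21 ± 0.15 in Sox4 cells (adjusted p = 0.283), and 0.10 ± 0.15 for the K/L leukaemia (adjusted p = 0.625). Its mean over the 9 arrays was 6.77, just above the 6.56 of 1425923_at, which the platform annotation ties to the same database record.

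That next probe set, 1425923_at, was bright in wild type cells alone. It measured 11.40, 11.61 and 10.62 on the wild type arrays, 4.21, 3.57 and 4.11 on the Sox4 arrays and 4.78, 4.31 and 4.41 on the K/L arrays. All leukaemic arrays lay below the 40th percentile of their array (4.84 to 4.94), far under the dimmest wild type array, so the size of the fall rests on little signal. The changes were -7.24 for Sox4 and -6.71 for K/L (adjusted p = 4.97e-08 and 5.04e-08, limma fit over all probe sets). The remaining probe set, 1417155_at, measured 3.69, 3.62 and 3.55 in wild type, 6.005, 5.93 and 5.89 in Sox4 and 3.47, 3.64 and 4.06 in K/L arrays. It was raised in Sox4 cells alone, by 2.32 over wild type (adjusted p = 1.29e-06), from a wild type level that lies below the same percentile. Which of these follows the Mycn transcript cannot be read from the values, and no direction is given here for Mycn, a gene on chromosome 12.

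**Figure D3:**
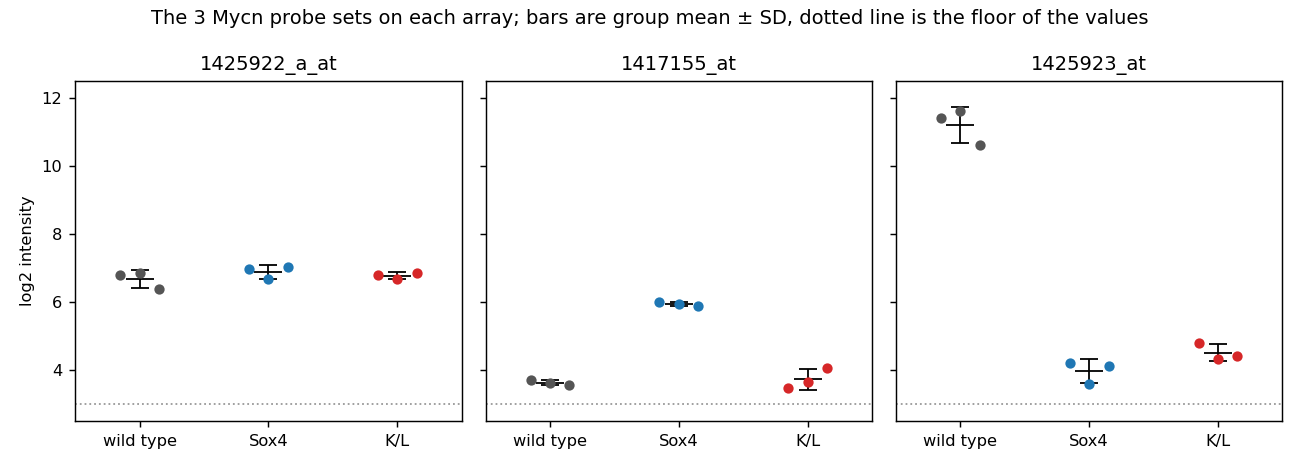
Log2 intensity (y axis) of the 3 Mycn probe sets on each array, by group; points are arrays, bars group mean ± SD (n = 3) and the dotted line the floor of 3. The first is level in all groups (means 6.67, 6.88 and 6.77), the second is high in Sox4 cells (5.94) and the third is high in wild type cells (11.21).

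Mga and Mlx complete the family. Mga (1434746_at, on chromosome 2) was the steadiest member, at 9.53, 9.48 and 9.62 in wild type, 9.40, 9.42 and 9.48 in Sox4 and 9.53, 9.59 and 9.38 in K/L arrays. No comparison passed, and the intervals bound its changes from wild type between -0.31 and 0.10 in Sox4 and between -0.25 and 0.16 in K/L cells. Among its 4 other probe sets, 1422646_at was lower in Sox4 cells (-0.29, adjusted p = 0.038) and 1442356_at higher in K/L cells (0.56, adjusted p = 0.0496), so the Mga probe sets did not share a direction.

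Mlx (1418437_a_at, on chromosome 11) measured 7.62, 6.98 and 7.21 in wild type, 7.56, 7.97 and 7.71 in Sox4 and 7.29, 7.16 and 7.28 in K/L arrays. Sox4 and K/L arrays did not overlap, but wild type array 1 lay above the lowest Sox4 array. Mlx was higher in Sox4 than in wild type cells by 0.48 ± 0.17 (adjusted p = 0.036) and lower in K/L than in Sox4 cells by 0.51 on the log2 scale (-0.51 ± 0.17, adjusted p = 0.0439). Among other settings, the first call was lost with no filter on dim genes and without wild type array 2 or 3, Sox4 array 2 or 3, or K/L array 1 or 3 (adjusted p up to 0.13 over the alternatives), and the second with no filter, with median centring, with quantile normalization and without Sox4 array 2 or 3 or any single K/L array (up to 0.151). The other Mlx probe set, 1425930_a_at, gave 0.47 and -0.57 in these comparisons (adjusted p = 0.0227 and 0.015).

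**Figure D4:**
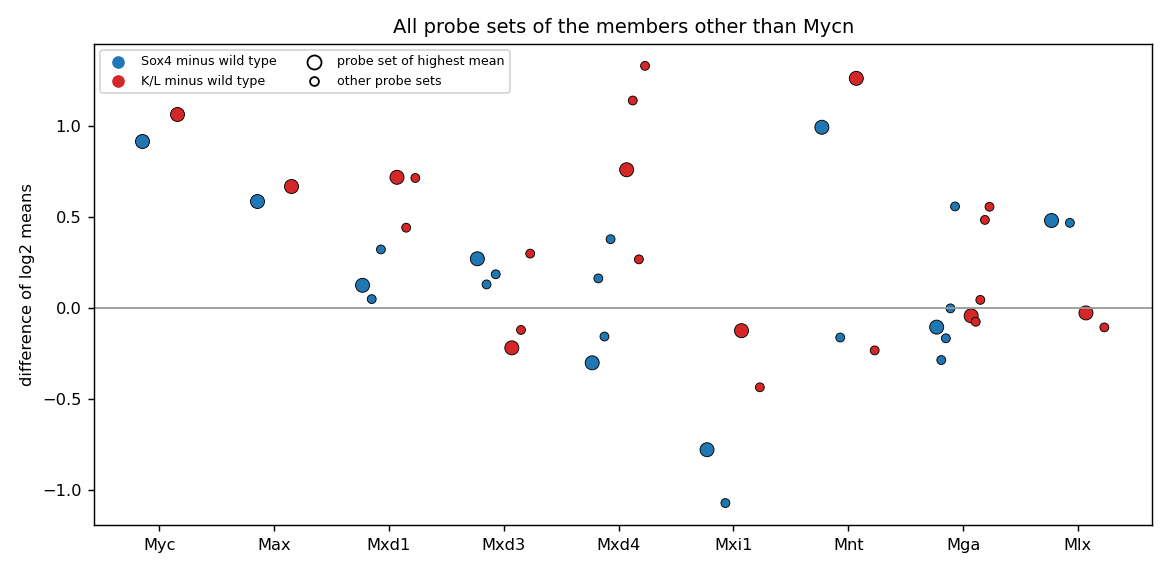
Difference of log2 means from wild type (y axis) for every probe set of the 9 members other than Mycn (x axis), Sox4 in blue and K/L in red; large points are the probe sets of highest mean. The probe sets of Mxd1, Mxi1 and Mlx lie on the same side of 0 within a comparison, and those of Mnt, Mga and Mxd4 (in Sox4 cells) and Mxd3 (in K/L cells) do not.

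Ordered by level within each gene, Myc, Max and Mnt ran wild type, Sox4, K/L from low to high, where the last 2 did not differ past the test. Mxd4 ran Sox4, wild type, K/L, with the first 2 not told apart, and Mxd1 ran wild type, Sox4, K/L, again with the first 2 not told apart. Mxi1 ran Sox4, K/L, wild type, the last 2 not told apart, and Mlx ran K/L, wild type, Sox4, the first 2 not told apart. Over the 9 arrays Myc correlated with Mnt (Pearson r = 0.95) and with Max (r = 0.92), Mxd1 with Mxd4 (r = 0.86), and Mlx ran against Mxi1 (r = -0.81). These values describe 9 arrays in 3 groups and largely restate the group means.

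The same holds for the genes whose pattern over the 9 arrays was most like each member's. For Myc these were Cbfa2t3, Kmt2d and Nup210 (r = 0.998, 0.997 and 0.996), and 612 genes exceeded an r of 0.95. For Mnt they were Tcf20, Nucb1 and Exosc10 (0.993, 0.991 and 0.991, with 361 genes over 0.95), and for Max Foxp4, Wrnip1 and Coq5 (0.985, 0.977 and 0.973, with 31). Mxd4 was most like St14, Arvcf and Phkg2 (0.994, 0.992 and 0.988, with 71), and Mxi1 most like Arel1, Tespa1 and Arhgap25 (0.99, 0.987 and 0.985, with 72). For Mxd1 they were Tbc1d20, Fto and the mast cell protease gene Cpa3 (0.98, 0.978 and 0.971), and for Mlx, where no gene exceeded 0.95, Nme2, Tie1 and Efcab14 (0.948, 0.946 and 0.944).

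The genes around the network were read from lists, beginning with close relatives. Of 5 listed relatives, 3 were tested. Bmyc, a short rodent Myc relative, was higher in Sox4 than in wild type cells by 1.74 ± 0.36 (adjusted p = 0.00281). Mlxip, which encodes the Mlx partner MondoA, was higher in K/L cells by 0.54 ± 0.16 (adjusted p = 0.0182). That value was 0.35 without wild type array 3 (adjusted p = 0.0295), and the call was lost without K/L array 2 (0.47, adjusted p = 0.0653). Mycl passed in no comparison (means 4.99, 4.81 and 4.94 for wild type, Sox4 and K/L), and Mlxipl and Mycs were too dim to be tested.

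Of 16 tested genes of Myc coactivators and partners, 9 rose and 1 fell in K/L cells and 8 rose and 0 fell in Sox4 cells (medians 0.41 and 0.38), beside 29.0 and 26.7 percent of all genes called higher. Ruvbl1, a helicase subunit of Myc-bound acetyltransferase complexes, rose by 1.02 ± 0.09 in K/L cells (adjusted p = 8.46e-06) and Hcfc1, a chromatin cofactor that binds Myc, by 1.45 ± 0.21 (adjusted p = 0.000292). In Sox4 cells the acetyltransferase gene Kat2a rose by 1.16 ± 0.16 and Ep400, a remodelling ATPase, by 1.597 ± 0.22 (adjusted p = 0.000252 and 0.000264), the latter by 0.56 with the mean of its probe sets (adjusted p = 0.00682).

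The Mxd proteins and Mnt act through corepressors of the Sin3 complex. Of 12 tested corepressor genes, 2 rose and 5 fell in K/L cells and 1 rose and 6 fell in Sox4 cells (medians -0.02 and -0.24), beside 21.6 and 21.1 percent of all genes called lower. Sap30, a core subunit, changed by -0.92 ± 0.09 in K/L and -0.67 ± 0.09 in Sox4 cells (adjusted p = 3.04e-05 and 0.000244). Brms1 rose in both (0.90 ± 0.12 and 0.67 ± 0.12, adjusted p = 0.000177 and 0.00114), but not with the mean of its probe sets (0.11 and 0.035, adjusted p = 0.425 and 0.809). Sin3b, one of the paired scaffold genes, was, like Mxi1, lowest in Sox4 cells: it was lower in Sox4 than in wild type cells (-0.62 ± 0.11, adjusted p = 0.00103) and higher in K/L than in Sox4 cells (0.72 ± 0.11, adjusted p = 0.000787).

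Partners of Mga in its Polycomb complex were mixed, with 4 of 9 up and 3 down in the K/L leukaemia and 2 up and 2 down in the Sox4 leukaemia (medians 0.20 and -0.11). Of all genes, 29.0 and 26.7 percent were called higher and 21.6 and 21.1 percent lower in K/L and Sox4 cells. Ring1 rose in K/L and Sox4 cells (0.98 and 0.80 ± 0.12, adjusted p = 0.0001 and 0.000396). Its paralogue Rnf2 fell in both (-0.64 and -0.77 ± 0.10, adjusted p = 0.000458 and 0.000151), and the K/L call was lost with the mean of its probe sets (-0.14, adjusted p = 0.23). Of 15 genes that set the turnover of Myc protein, 5 rose and 3 fell in K/L cells and 6 rose and 4 fell in Sox4 cells. The same shares of all genes (29.0 and 26.7 percent higher, 21.6 and 21.1 percent lower) stand beside these counts. Usp36, a nucleolar deubiquitinase of Myc, rose by 1.46 ± 0.13 and 1.59 ± 0.13 (adjusted p = 1.3e-05 and 8.05e-06). Fbxw7, the ubiquitin ligase subunit best known for degrading Myc, is named here for that role after its values were seen: its means were 8.81, 9.002 and 8.90 for wild type, Sox4 and K/L, with no call.

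Targets that Myc is known to activate moved in both directions. Of 36 tested, 11 rose and 6 fell in K/L cells (median 0.06, beside 0.06 over all genes) and 14 rose and 5 fell in Sox4 cells (median 0.16, against 0.03), beside the same 29.0 and 26.7 percent called higher and 21.6 and 21.1 percent called lower. The amino acid transporter gene Slc7a5 rose by 1.77 ± 0.14 in K/L and 2.01 ± 0.14 in Sox4 cells (adjusted p = 7.1e-06 and 3.47e-06). Shmt2, of mitochondrial one-carbon metabolism, rose by 1.15 ± 0.11 in K/L cells (adjusted p = 1.63e-05). Tert, the telomerase gene, changed by -2.34 ± 0.24 in Sox4 cells (adjusted p = 3.47e-05), to a mean of 3.94, which is below the 40th percentile of its arrays. Between the leukaemias 0 of the 36 were higher and 2 lower in K/L cells (Slc16a1 and Tfrc, -0.57 and -0.55). Of all genes, 14.9 percent were called higher and 14.0 percent lower in that comparison. The Tfrc call was lost with the mean of its probe sets (-0.35, adjusted p = 0.141). CACGTG was present in the promoter windows of 12 of the 34 listed targets that had one. Counted by window this was 13 of 39 (33.3 percent), beside 7.15 percent of all windows.

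Of 10 genes that Myc is known to repress, 3 rose and 3 fell in K/L cells and 5 rose and 3 fell in Sox4 cells. Over all genes, 29.0 and 26.7 percent were called higher and 21.6 and 21.1 percent lower. Cdkn1b, the gene of the cell cycle inhibitor p27, was higher in both (4.24 ± 0.27 and 3.82 ± 0.27, adjusted p = 1.38e-06 and 3.31e-06). Its wild type arrays measured 5.45, 5.43 and 4.27, the last below the 40th percentile of that array (4.93). The size of both rises thus rests on little wild type signal. Ndrg2, a differentiation-linked gene, was lower in both (-5.95 and -1.54 ± 0.11, adjusted p = 6.48e-10 and 4.19e-06). Its K/L arrays, at 4.26, 4.21 and 4.25, lay below their 40th percentiles (4.84 to 4.86), so the size of that fall rests on little signal. Targets of Mlx and the Mondo proteins were higher in 5 of 8 and lower in 0 in K/L cells (median 0.72) and higher in 2 and lower in 0 in Sox4 cells (median 0.16), beside 29.0 and 26.7 percent of all genes called higher and medians of 0.06 and 0.03. Txnip, the most studied MondoA target and a brake on glucose uptake, was higher in K/L cells than in wild type by 1.21 ± 0.12 and than in Sox4 cells by 1.24 ± 0.12 (adjusted p = 2.87e-05 and 4.39e-05). Its group means were 8.59 for wild type, 8.56 for Sox4 and 9.81 for K/L, with all K/L arrays above all others. Klf10 rose in both (2.18 ± 0.14 and 1.54 ± 0.14, adjusted p = 1.34e-06 and 1.5e-05).

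Of 19 proliferation genes tested, K/L cells had 9 that rose and 2 that fell, and Sox4 cells 12 that rose and 0 that fell (medians 0.41 and 0.45), beside 29.0 and 26.7 percent of all genes called higher and 21.6 and 21.1 percent called lower. Ccne1, the cyclin of S phase entry, rose by 1.02 ± 0.13 in K/L cells, and Ccna2 by 0.90 ± 0.09 in Sox4 cells (adjusted p = 0.000128 and 2.39e-05). Between the leukaemias 6 of the 19 were lower and 0 higher in K/L cells (median -0.25), beside 14.0 percent of all genes called lower, and 13 were not called. Ccna2 changed by -0.38 ± 0.09 there, and Aurkb by -0.49 ± 0.12 (adjusted p = 0.00928 and 0.013), a call lost without Sox4 array 3 or K/L array 3 (adjusted p = 0.0539 and 0.0551). Counts, medians and shares of these lists are descriptions of genes chosen with earlier results of these data known.

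**Figure D5:**
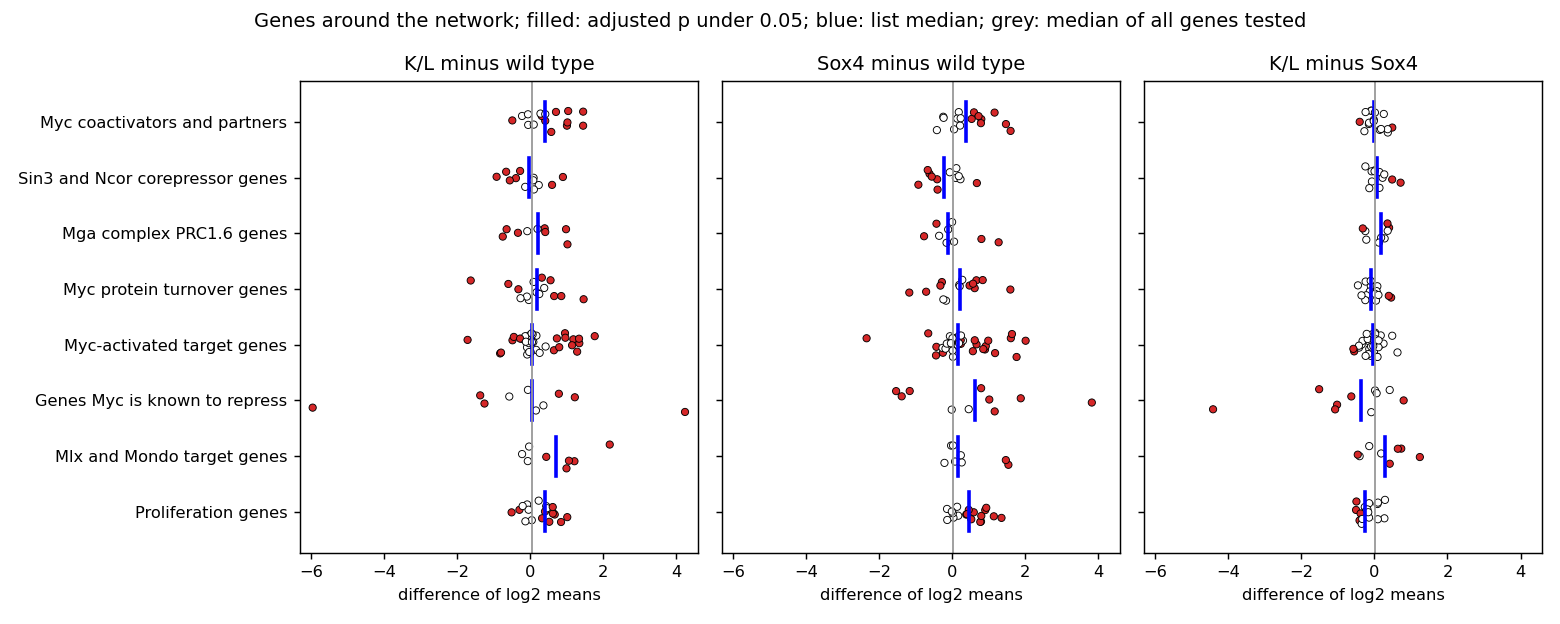
Difference of log2 means (x axis) of each tested gene in 8 lists around the network (y axis) for the 3 comparisons; filled points have an adjusted p under 0.05, blue lines are list medians and the grey line is the median of all 12826 genes tested. Coactivator genes lie mostly to the right in both leukaemias (medians 0.41 and 0.38), and the activated Myc targets spread to both sides of 0.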

How the data were processed

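Per the labels' protocols, 5 ug of RNA from the sorted cells went into biotin-labelled cRNA, which was read on 9 Affymetrix arrays. The authors deposited linear intensity values for 45101 probe sets with a floor of 8. The submitters' processing notes name RMA; further scaling is not stated there. Intensities were log2 transformed as deposited. A platform annotation of 2016 gave 34958 probe sets 1 symbol, 932 several and 9211 none; only the first were used, 1 per gene (highest mean log2 value, _x_at sets only where a gene had no other). Genes above the 40th percentile of at least 3 arrays were tested with limma 3.58.1 (R 4.3.3) in 1 fit of 3 groups, with 6 residual and 3.71 prior degrees of freedom, which was checked on simulated data. Permutation of 3 against 3 arrays cannot go below p = 0.1 and was not used. Named genes were all members, up to 2 printed of the 4 smallest p-values per list and comparison, and the 3 genes of highest Pearson r per called member. The members, lists and rules were chosen with earlier results of these data known. Lists were matched by symbol, and 22 listed genes had no probe set with that symbol alone. The alternatives were other filters, scalings, probe set rules and variance models, a replicate block and each array left out. Testing each probe set alone, and choosing by linear mean, were added after seeing the data. Sequences are from RefSeq tables on GRCm38.p6. Myc had no entry in the promoter table.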

Additional observations from a re-analysis of the deposited data

How the results depend on the processing

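Of 540 member changes recomputed over 18 alternatives, 492 kept their direction and side of the threshold, 23 lost the call, 10 gained it and 15 changed sign. All calls of Myc, Max, Mnt, Mxd4 and Mxd1 for K/L versus wild type, of Myc, Max, Mnt and Mxi1 for Sox4 versus wild type, and of Mxd4 and Mxi1 for K/L versus Sox4 held in every one of the 18. The number of members called in K/L versus Sox4 was 2 with no filter on low values and 2 to 5 when arrays were left out, 2 without any 1 K/L array and 5 without wild type array 3; the count of genes tested or the loss of an array is part of each setting, and no further cause was tested. Sign changes for K/L versus wild type were those of Mycn with all its probe sets averaged (-2.17), with the probe set of highest linear mean (-6.71, chosen after seeing the data) and without wild type replicate 3 (-0.056; range over arrays left out -0.056 to 0.19). Mga changed sign when all its probe sets were averaged (0.19), with median centring (0.050) and without K/L replicate 3 (-0.087 to 0.017 over arrays left out), and Mlx with median centring (0.066), quantile normalization (0.059), without wild type replicate 1 (0.15) and without K/L replicate 2 (0.014; -0.17 to 0.15 over arrays left out). For Sox4 versus wild type they were Mycn with probe sets averaged (-1.57) and with the highest linear mean (-7.24), Mxd4 with probe sets averaged (0.020) and Mxd1 without wild type replicate 3 (-0.069 to 0.28 over arrays left out), and for K/L versus Sox4 Mycn with the highest linear mean (0.53). Of these, the Mycn falls with probe sets averaged or chosen by linear mean passed the test and the others did not. For the Mycn values with probe sets averaged or chosen by linear mean, the probe set read is the cause by construction. Otherwise, including Mycn without wild type replicate 3, where the probe set was unchanged, the cause was not tested. The replicate number as a block gave 5, 4 and 3 members called in K/L versus wild type, Sox4 versus wild type and K/L versus Sox4, against 5, 5 and 4 without it. The Mlx calls were the ones lost (adjusted p = 0.0597 for Sox4 versus wild type and 0.0732 for K/L versus Sox4). Same-numbered arrays showed no strong shared deviation (r from -0.02 to 0.08 in 9 pairs, and from -0.05 to 0.05 in the 18 other pairs). With 3 arrays a group, such values cannot exclude that same-numbered arrays were handled together. Of 51 called changes of named list genes, 908 of 916 recomputed values kept the call, 8 lost it and 0 changed sign. With all probe sets averaged, the values for K/L and Sox4 versus wild type were 0.66 and 0.92 for Usp36, 0.66 and 0.50 for Shmt2 and, for Ep400 in K/L cells, 0.37, all still called; Sin3b gave -0.33 for Sox4 versus wild type and 0.44 for K/L versus Sox4. With 3 arrays a group, and wild type the most variable group, changes below about the intervals printed could not be seen, and dim probe sets near the floor of 3 bound a fall only loosely.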
